A study of Mus musculus with 20 samples.

Results

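The corneal epithelium of female wild-type C57BL/6J mice was compared between 12 to 13 and 18 to 19 months of age, called 12-month and 18-month below. Each age had 5 libraries, so 10 of the 20 libraries of the series entered the comparison; the remaining 10, from mice of 2 and 24 months, were used as reference levels. All 20 mice were naive, carried no transgene and received no treatment, and each library held the epithelium scraped from both corneas of 1 animal, so that the replicates were separate animals. The study asked how age affects the epithelium, its sensitivity and its repair, and the interval from 12 to 18 months is the middle of the span it covered. Mice of the study were bought, aged in house or obtained from an aging institute's colony, which age came from which source was not given, and age and source cannot be told apart. The comparison covered the 11288 genes whose mean normalized count over the 20 libraries was at least 10, a normalized count being the read count of a gene divided by a size factor of its library.

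The corneal epithelium is a stratified, non-keratinized sheet that is renewed from stem cells at the limbus. Basal cells express keratins 5 and 14, divide and rest on a basement membrane through hemidesmosomes, and cells above them express keratin 12 and keep the surface smooth and sealed. The tissue has no vessels, takes part of its oxygen and growth factors from the tear film, and is one of the most densely innervated surfaces of the body. When it is stressed or wounded it makes keratins 6 and 16, small proline-rich proteins, antimicrobial proteins and cytokines of the interleukin 1 family.

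The 10 libraries held between 6699383 and 10559825 reads on genes and between 12185 and 13463 detected genes. Replicate 2 of the 18-month libraries stood furthest from its age group, with a root mean square deviation of 0.742 on the log2 scale, and replicate 4 of the 12-month libraries came next at 0.692. Both ages carried all 6 markers of corneal epithelium at high levels. *Krt12*, the keratin that defines this epithelium, had normalized counts from 203580 to 263123 at 12 months and from 219775 to 258249 at 18 months, a log2 difference (18-month minus 12-month) of 0.04. The differences of *Krt5*, of *Pax6*, the master transcription factor of the eye, and of *Aldh3a1*, the main soluble protein of this epithelium, were 0.13, 0.16 and 0.08, that of the basal keratin *Krt14* was 0.44 and that of *Tkt*, a transketolase abundant in the cornea, was -0.26. Markers of other cells varied in level. The conjunctival keratin *Krt13* (22396 to 36170 at 12 months and 24425 to 33668 at 18 months), *Mbp*, a Schwann cell marker (1910 to 3424 and 2386 to 2826), and *Dcn*, a keratocyte proteoglycan (341 to 905 and 306 to 832), were present in every library, while blood, muscle and leukocyte markers were low. *Cd3e*, which marks T cells, was at 0 in every 12-month library and reached 2.44 at 18 months. *Ptprc*, the pan-leukocyte antigen, ranged from 7.50 to 31.3 and from 3.66 to 54.8. Both hemoglobin genes measured and the muscle gene *Ckm* were at 0 in all 10 libraries. In such bulk libraries, fewer cells of a type and less RNA per cell cannot be told apart.

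A single gene differed between the ages at an adjusted p of at most 0.05 and a fold of at least 1.2, which was 0.00886% of the genes tested (limma, Benjamini-Hochberg adjustment). At unadjusted p under 0.05 there were 839 genes, 7.43% of those tested, of which 450 (3.99%) were higher and 389 (3.45%) lower at 18 months. When the trends of each library with GC content and transcript length were removed, this split turned to 352 higher and 457 lower. Leaving out 12-month replicate 1 raised the count to 1330, with 725 higher and 605 lower. The 5 libraries of 1 age lay entirely above the 5 of the other for 127 genes, 1.13% of those tested, with 58 higher and 69 lower at 18 months. The median log2 difference of all genes was 0.01.

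The sizes of the differences can be bounded more firmly than their significance. The median absolute log2 difference was 0.20, the median standard error was 0.24, and the 95% confidence interval of the difference lay wholly within 2-fold in either direction for 7724 genes (68.4%) and within 1.5-fold for 4179 (37.0%). This depended on the level of a gene. Among the 1344 genes with a mean normalized count over 1000, 99.2% had an interval within 2-fold, 88.5% within 1.5-fold, and 0 had an estimate beyond 2-fold. Among the 2547 genes with a mean between 10 and 50, only 7.03% were bounded within 2-fold and 16.9% had an estimate beyond it, with a median standard error of 0.60. With 5 libraries per age at this depth, changes smaller than 2-fold were not detectable for most weakly expressed genes, while a change of more than 2-fold in an abundant transcript lay outside the interval in nearly every case.

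**Figure D1:**
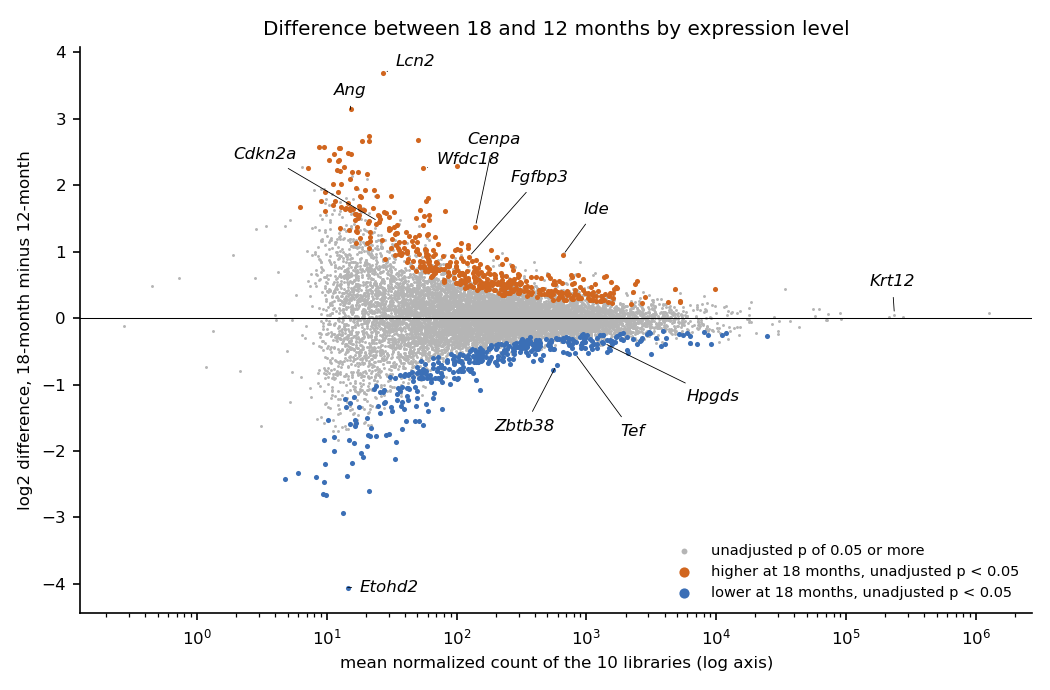
Log2 difference of each of the 11288 genes (18-month minus 12-month, vertical axis) against its mean normalized count (horizontal axis, log scale), with genes at unadjusted p under 0.05 in colour and named genes labelled. The spread narrows from left to right: 431 of the 482 genes beyond 2-fold have a mean between 10 and 50, and none has a mean over 1000.

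*Etohd2*, a long noncoding RNA gene (chromosome 13, 59769966 to 59773680, GRCm38.p6), was the gene that passed the test, and it fell at 18 months. Its normalized counts were 9.19, 36.8, 22.5, 46.1 and 25.5 in the 12-month libraries (replicates 1 to 5) and 3.66, 0, 0, 0.896 and 0 in the 18-month libraries. Every 18-month library was below every 12-month one, and the 18-month value rested on 4 reads against 125 reads. The 2-month libraries ranged from 9.54 to 35.1 and the 24-month libraries from 5.65 to 36.6, so the low level was seen at 18 months and not at the ages on either side. The log2 difference was -4.06 with a standard error of 0.71 (limma adjusted p = 0.0432). The size depends on the constant added before the logarithm, being -1.72 with 10 and -6.24 with 0.1 in place of 1, and the adjusted p was above 0.05 (0.0595 to 0.167) when any 1 library other than 12-month replicate 1 or 18-month replicate 1 was left out.

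*Wfdc18*, which encodes a small secreted protein with a whey acidic protein domain, was higher at 18 months. Its normalized counts were 11.9, 32.9, 3.21, 24.1 and 33.1 at 12 months and 96.3, 46.9, 96.9, 53.8 and 157 at 18 months. All 18-month libraries lay above all 12-month libraries, and the log2 difference was 2.26 with a standard error of 0.45 (limma adjusted p = 0.0915). The 2-month level was higher still, from 308 to 553, and the 24-month level ranged from 36.5 to 131. *Wfdc18* belongs to a list of 17 tested gland and tear protein genes, which had a median log2 difference of 0.22. Of the other genes of that list, *Scgb2b2*, a secretoglobin, had unadjusted p under 0.05 and was lower (-2.32), and *Obp1a*, an odorant-binding protein, differed by -1.24.

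*Ide*, the insulin-degrading enzyme, was 1.93-fold higher at 18 months. It had normalized counts of 673, 383, 486, 382 and 353 at 12 months and 839, 664, 1007, 948 and 851 at 18 months. Only 12-month replicate 1 reached the 18-month range. The means were 455 ± 132 and 862 ± 131 (SD, n = 5), the 95% interval of the log2 difference ran from 0.57 to 1.32, and the limma adjusted p was 0.0915. Without 12-month replicate 1 the adjusted p was 0.0124. The 24-month libraries, from 760 to 935, lay near the 18-month ones, and the 2-month libraries ranged from 324 to 717. *Fgfbp3*, which encodes a carrier of fibroblast growth factors and lies near *Ide* on chromosome 19, was also higher, with normalized counts of 113, 85.5, 112, 96.2 and 38.2 against 144, 162, 156, 179 and 154. These ages did not overlap for *Fgfbp3* and the log2 difference was 0.92, or 0.64 without 12-month replicate 5. The 3 tested genes between both, *Btaf1*, *Cpeb3* and *March5*, differed by 0.00, 0.19 and 0.09. From 500000 bases before *Fgfbp3* to 500000 after *Ide*, 10 genes were tested and 3 had unadjusted p under 0.05. The third, *Hectd2*, on the other side of *Fgfbp3*, was lower at 18 months (-1.10).

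*Zbtb38*, a zinc finger protein that binds methylated DNA, was lower at 18 months. The 12-month libraries had normalized counts of 644, 758, 566, 812 and 888 and the 18-month libraries 476, 380, 403, 448 and 538. The ages did not overlap, and the log2 difference was -0.70 with a standard error of 0.15 (limma adjusted p = 0.196). The 2-month mean of 479 ± 99.2 and the 24-month mean of 425 ± 48.6 (SD, n = 5) were close to the 18-month mean of 449 ± 62.1, and the 12-month mean of 734 ± 129 stood above all of these.

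Among genes with a mean of at least 50 and no overlap between the ages, the 8 largest differences in each direction were taken. Those higher at 18 months were *Wfdc18* and 7 others with log2 differences from 1.01 to 1.47, in descending order *Jrk*, *Nme7*, *Tinf2* (a component of the telomere-capping shelterin complex), *Il10rb* (a receptor chain shared by interleukin 10 and lambda interferons), *Zbtb8b*, *Ammecr1* and *Pstk*. Their limma adjusted p values were between 0.567 and 0.63. A single 12-month library stood apart below the other 4 for *Jrk*, *Nme7*, *Tinf2*, *Zbtb8b*, *Ammecr1* and *Pstk*. Without 12-month replicate 4 the log2 difference of *Jrk* went from 1.47 to 0.89, and without 12-month replicate 5 that of *Nme7* went from 1.24 to 0.68. *Il10rb* had normalized counts of 101, 86.8, 105, 71.1 and 38.2 at 12 months and 107, 195, 162, 150 and 199 at 18 months. The genes lower at 18 months had log2 differences from -1.39 to -0.84 and adjusted p between 0.567 and 0.661, and they were *Ccdc85b*, *Cep152* (a centriole assembly factor), *Map6* (a microtubule stabilizer), *Ppcdc* (an enzyme of coenzyme A synthesis), *Ccdc141*, *1700029J07Rik*, *Cit* (citron kinase, which acts in cytokinesis) and *Chek1* (the checkpoint kinase 1 of the DNA damage response). *Ccdc85b* had normalized counts of 73.5, 108, 49.3, 110 and 87.9 against 31.7, 11.7, 49.2, 41.2 and 35.8. *Chek1* had 71.7, 82.9, 68.6, 54.1 and 65.0 against 32.9, 46.9, 29.4, 51.1 and 31.9.

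**Figure D2:**
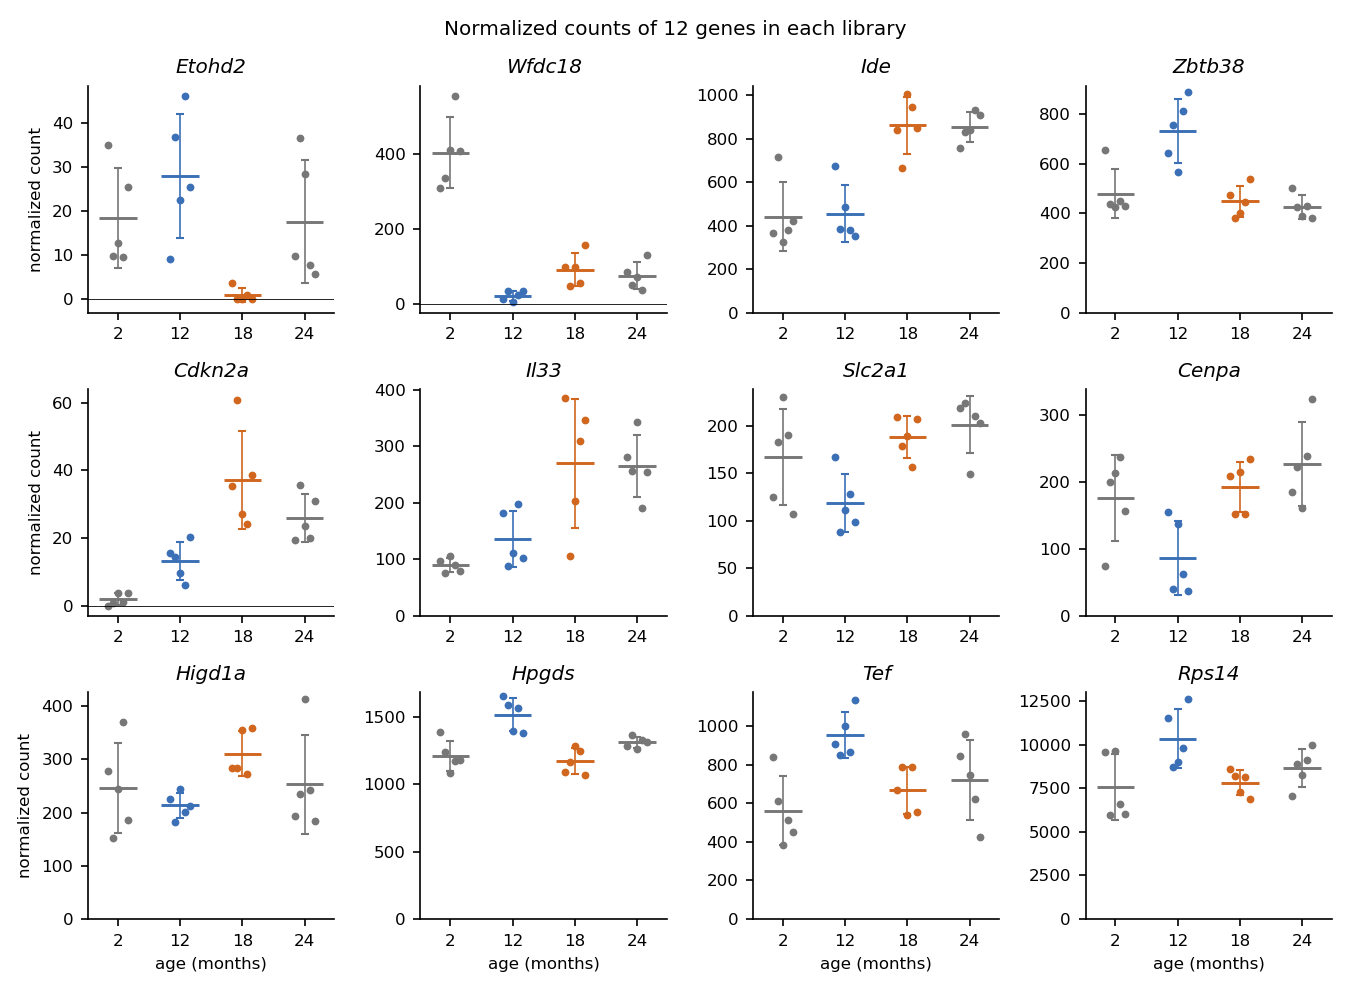
Normalized counts of 12 genes in each library at the 4 ages (points), with the mean of 5 libraries (line) and its SD (bars); 12-month libraries are blue, 18-month libraries orange and the other ages grey, and each panel has its own linear vertical axis. For Etohd2, Wfdc18, Zbtb38, Cdkn2a, Higd1a, Hpgds, Tef and Rps14 the blue and orange points do not overlap, while for Ide, Il33, Slc2a1 and Cenpa 1 or more libraries do.

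Gene lists were then compared by their median difference and by how many members had unadjusted p under 0.05, to be read against the 3.99% higher and 3.45% lower among all genes. In the 54 lists with genes tested, no member passed the adjusted test in limma, so the members below are described by the unadjusted one.

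**Figure D3:**
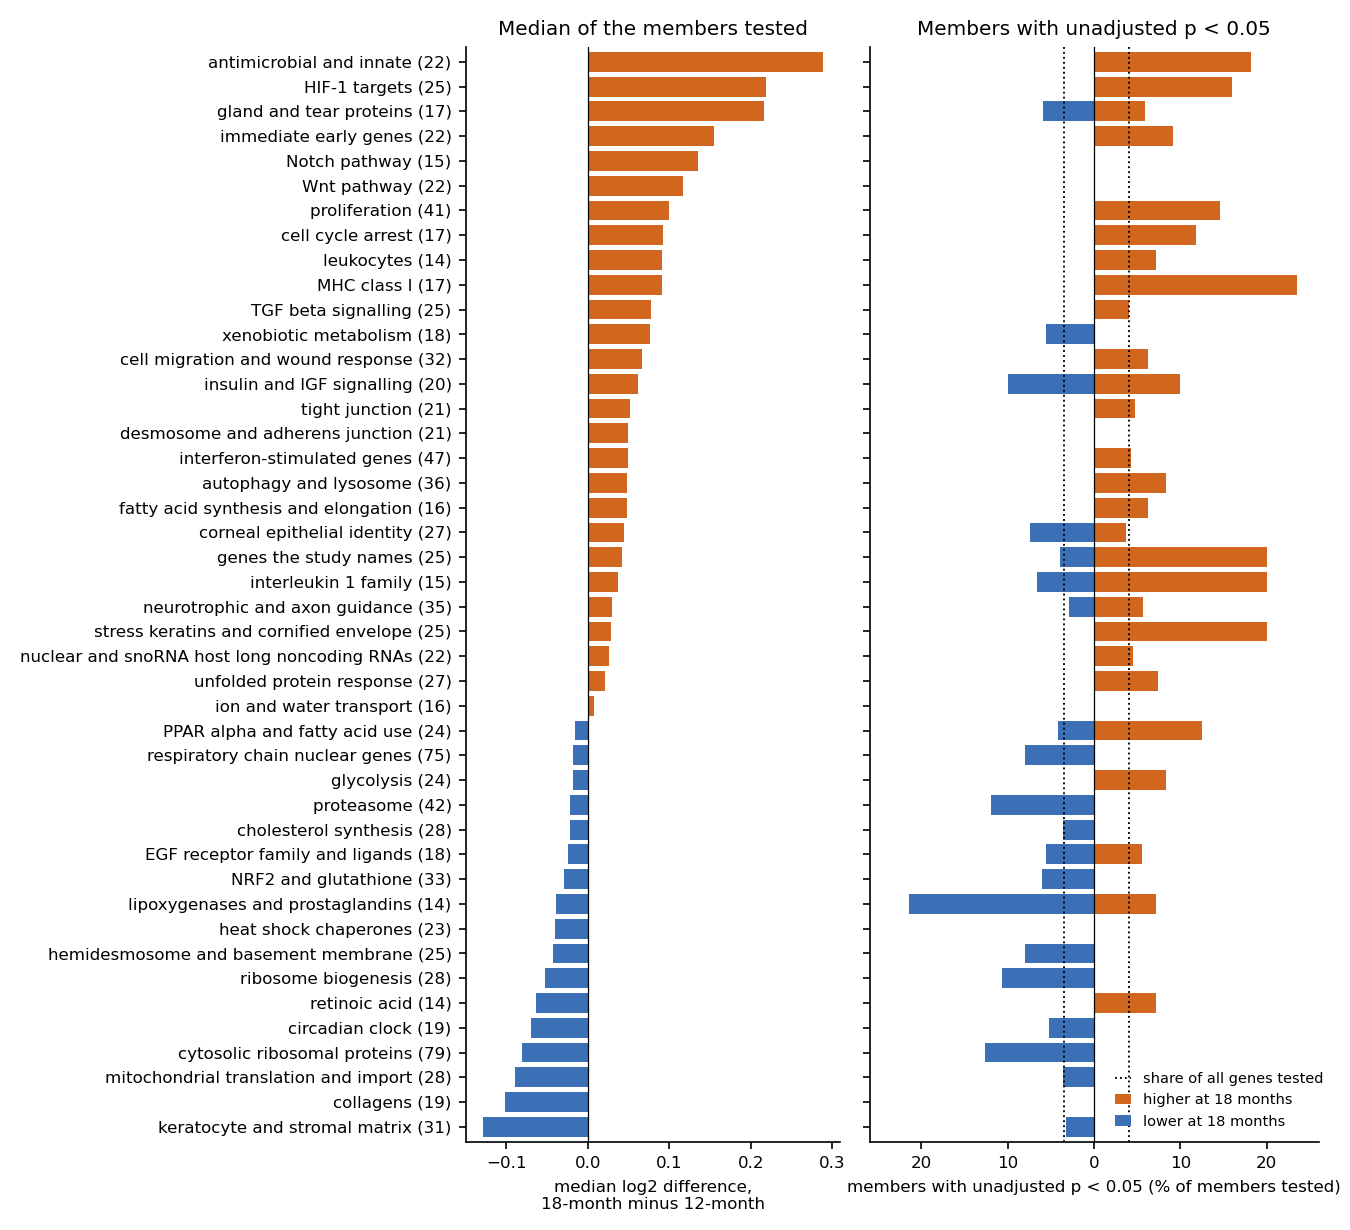
Median log2 difference (18-month minus 12-month) of each of the 44 gene lists with at least 14 genes tested (left), and the percentage of its members with unadjusted p under 0.05 that were higher or lower at 18 months (right), with dotted lines at the percentages over all 11288 genes. The antimicrobial, HIF-1 and gland lists have the highest medians (0.29, 0.22 and 0.22), and the keratocyte, collagen, mitochondrial translation and ribosomal protein lists the lowest (-0.13, -0.10, -0.09 and -0.08).

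A few of the genes that the epithelium makes under stress were higher at 18 months, while the list as a whole stayed near 0. Of 25 stress keratin and cornified envelope genes tested, 5 (*Krt16*, *Sprr1a*, *Lce3b*, *S100a7a* and *S100a14*) were higher at unadjusted p under 0.05 and 0 lower, and the median was 0.03. *Krt16*, the keratin of wounded and hyperproliferative epithelium, had normalized counts of 28.5, 32.9, 45.0, 62.1 and 19.1 at 12 months and 140, 92.7, 73.8, 60.0 and 254 at 18 months. Only 18-month replicate 4 lay within the 12-month range, and the log2 difference was 1.61 with a standard error of 0.78 (limma adjusted p = 0.669). *S100a7a*, the mouse psoriasin, had 20.2, 17.1, 21.4, 31.1 and 8.92 against 50, 39.9, 27.0, 52.9 and 69.6, with a log2 difference of 1.27. *Sprr1a*, a precursor of the cornified envelope, had 190, 388, 110, 246 and 149 against 365, 263, 278, 383 and 370. For *Sprr1a* the 18-month libraries all fell within the 12-month range, its log2 difference was 0.73, and it was 0.52 without 12-month replicate 3. Leaving out any 1 library gave 2 to 4 members of the list higher and 0 to 2 lower at unadjusted p under 0.05. The fewest higher, 2, came without 12-month replicate 3 or without 18-month replicate 1.

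In the interleukin 1 family, the ligands *Il1a* and *Il33* and the protease *Casp1* were higher and 1 receptor was lower at unadjusted p under 0.05. *Il1a*, an alarmin stored in epithelial cells, had normalized counts of 35.8, 38.1, 48.2, 18.0 and 8.92 at 12 months and 101, 38.7, 124, 68.1 and 78.3 at 18 months, a log2 difference of 1.54. *Il33*, a nuclear alarmin released on damage, had 181, 88.1, 111, 197 and 103 against 385, 106, 203, 309 and 346, a log2 difference of 0.92. For both genes, 18-month replicate 2 was the lowest of its age and the other 4 lay above every 12-month library. *Casp1*, the protease of the inflammasome, differed by 1.22 (0.63 without 12-month replicate 5). *Il1rl2*, the receptor of the interleukin 36 cytokines, was lower by a log2 difference of -1.37, with 81.8, 81.6, 69.6, 154 and 148 against 26.8, 75.1, 23.8, 20.6 and 85.1. Of the 15 genes of this family tested, 3 were higher and 1 lower at unadjusted p under 0.05, and the limma adjusted p of these 4 was between 0.567 and 0.661. The 6 tested ligands had a median of 0.30 and the 6 receptors of -0.62.

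The antimicrobial and innate list had the highest median of the lists with at least 14 genes tested, 0.29 over 22 genes, and this rested in large part on 1 library. *Lcn2*, which encodes the iron-scavenging lipocalin 2, had normalized counts of 0, 0, 6.43, 1.00 and 0 at 12 months and 34.1, 24.6, 2.38, 8.06 and 195 at 18 months. *S100a9*, a subunit of calprotectin, had 15.6, 2.63, 20.4, 62.1 and 10.2 against 168, 54.0, 17.5, 23.3 and 627. For both genes 18-month replicate 5 was the highest library and 18-month replicate 3 the lowest of its age. Their log2 differences were 3.70 and 2.30, and 2.91 and 1.54 without replicate 5. With *Myd88* (0.52), the adaptor of Toll-like and interleukin 1 receptors, and *Nfkbiz* (0.33), a nuclear regulator of NF-kappa B, 4 members were higher at unadjusted p under 0.05 and 0 lower. Without 18-month replicate 5 the median was 0.11 and 2 members were higher. The summed normalized count of the 43 leukocyte genes measured, of which 14 were tested, was highest in that same library, at 2129. It was 1098 to 1589 in the other 18-month libraries and 1120 to 1739 at 12 months. *S100a9* is one of those 43 genes and gave 627 of the sum, and the part of leukocytes in these values was not tested.

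*Cdkn2a*, which encodes the cell cycle inhibitor p16 and the p53 activator ARF, was higher at 18 months in every library. Its normalized counts were 15.6, 14.5, 9.64, 6.01 and 20.4 at 12 months and 35.4, 61.0, 27.0, 24.2 and 38.7 at 18 months. The ages did not overlap, and the log2 difference was 1.45 with a standard error of 0.57 (limma adjusted p = 0.637). At 2 months the counts ran from 0 to 3.79 and at 24 months from 19.5 to 35.8, so the 18-month mean of 37.2 ± 14.5 was the highest of the 4 ages, and its range overlapped that of the 24-month mean of 26 ± 7.15 (SD, n = 5). Of 17 genes of cell cycle arrest and the p53 response, *Plk2*, a p53-induced kinase, was the other that was higher at unadjusted p under 0.05 (0.39), 0 were lower, and the median was 0.09. *Gadd45a*, which is induced by DNA damage, had 162, 125, 141, 152 and 120 against 182, 235, 215, 212 and 170, again without overlap, a log2 difference of 0.53. *Gadd45a* stood in the list of immediate early genes with *Zfp36*, whose protein tristetraprolin degrades cytokine mRNAs (0.72, and 0.46 without 18-month replicate 4). That list of 22 genes had a median of 0.16 with 16 members higher, and 0.04 without 18-month replicate 4. All 8 of its tested feedback regulators had a positive difference, 2 of them with unadjusted p under 0.05, with a median of 0.40, and the median of its 13 transcription factors was 0.07.

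Some genes of antigen presentation were higher at 18 months, in part through 1 library. Of 6 class II genes tested, all had a positive difference, the median was 0.56, and *H2-Aa*, a class II chain, and *Cd74*, the invariant chain, had unadjusted p under 0.05. *H2-Aa* had normalized counts of 128, 98.7, 107, 72.2 and 154 at 12 months and 149, 245, 156, 133 and 143 at 18 months, with overlap between the ages for 3 of the 18-month libraries. Without 18-month replicate 2 its log2 difference went from 0.57 to 0.42 and the median of the class went from 0.56 to 0.39, and without 12-month replicate 4 the number of class II genes at unadjusted p under 0.05 went from 2 to 0. Of 17 class I genes tested, whose heavy chains are near-identical paralogs that can share reads, the heavy chains *H2-K1* (0.38) and *H2-D1* (0.46), the light chain *B2m* (0.65) and the regulator *Irf1* (0.23) were higher and 0 lower at unadjusted p under 0.05. *B2m* had 679, 539, 419, 674 and 791 against 698, 2485, 644, 775 and 915, so that 18-month replicate 2 stood above all others, and without it the difference was 0.31 and the median of the class 0.00. Without 12-month replicate 2, 1 class I gene was higher at unadjusted p under 0.05. The 47 interferon-stimulated genes had a median of 0.05, with *Stat2* (0.55), a transcription factor of the type I interferon response, and *Irf1* higher at unadjusted p under 0.05. *Ptprc* and *Lyz2*, which mark leukocytes and myeloid cells, differed by 0.54 and -0.33, and *Cd207*, the Langerhans cell lectin, was at 0 in 4 of 5 libraries of each age.

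Several mitotic genes were higher at 18 months, while genes of DNA replication centred near 0. The division genes *Cep152* and *Cit* and the checkpoint gene *Chek1*, named above and not on the proliferation list, were lower without overlap. Of 41 proliferation genes, all tested, 29 had a positive difference, 6 were higher and 0 lower at unadjusted p under 0.05, and the median was 0.10. Their promoters are shown because 5 of the 6 members that were higher act in mitosis or its control and because the sequence element that controls many mitotic genes, the cell cycle homology region, can be read there. The sequences run from 250 bases before to 50 after the start of the gene, 5′ to 3′ on the strand of the gene (RefSeq, GRCm38.p6), with each TTTGAA in capitals, searched on both strands. They are those of *Cenpa*, the centromeric histone (chr5:30666636-30666935, plus strand), *Cdk1*, the mitotic kinase (chr10:69352863-69353162, minus strand), *Bub1b*, a spindle checkpoint kinase (chr2:118597961-118598260, plus strand), *Kif23*, a kinesin of cytokinesis (chr9:61946750-61947049, minus strand), and, as a proliferation marker whose difference was near 0, *Mki67* (chr7:135716330-135716629, minus strand).
Cenpa: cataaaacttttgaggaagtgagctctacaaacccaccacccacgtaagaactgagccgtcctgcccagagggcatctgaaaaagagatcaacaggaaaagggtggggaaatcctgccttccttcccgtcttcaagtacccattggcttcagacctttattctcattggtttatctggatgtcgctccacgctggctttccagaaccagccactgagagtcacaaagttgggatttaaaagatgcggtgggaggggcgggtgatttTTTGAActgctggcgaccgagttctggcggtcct
Cdk1: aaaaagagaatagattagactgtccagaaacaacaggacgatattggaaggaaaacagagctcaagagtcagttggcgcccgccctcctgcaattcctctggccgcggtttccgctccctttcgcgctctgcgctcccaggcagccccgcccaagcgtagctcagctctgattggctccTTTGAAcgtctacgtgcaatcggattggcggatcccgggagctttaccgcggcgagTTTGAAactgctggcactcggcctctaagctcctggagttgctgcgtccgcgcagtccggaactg
Bub1b: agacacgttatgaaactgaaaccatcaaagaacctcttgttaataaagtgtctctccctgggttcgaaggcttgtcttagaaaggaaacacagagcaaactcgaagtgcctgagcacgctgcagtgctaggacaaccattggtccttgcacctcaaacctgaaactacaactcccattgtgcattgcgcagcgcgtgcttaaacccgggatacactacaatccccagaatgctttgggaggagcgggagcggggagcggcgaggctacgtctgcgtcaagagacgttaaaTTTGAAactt
Kif23: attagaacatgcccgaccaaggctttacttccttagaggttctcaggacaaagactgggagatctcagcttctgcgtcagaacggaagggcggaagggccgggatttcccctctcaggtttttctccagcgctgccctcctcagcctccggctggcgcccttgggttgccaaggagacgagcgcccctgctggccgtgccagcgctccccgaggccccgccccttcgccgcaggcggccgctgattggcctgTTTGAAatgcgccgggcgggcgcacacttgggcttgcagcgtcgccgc
Mki67: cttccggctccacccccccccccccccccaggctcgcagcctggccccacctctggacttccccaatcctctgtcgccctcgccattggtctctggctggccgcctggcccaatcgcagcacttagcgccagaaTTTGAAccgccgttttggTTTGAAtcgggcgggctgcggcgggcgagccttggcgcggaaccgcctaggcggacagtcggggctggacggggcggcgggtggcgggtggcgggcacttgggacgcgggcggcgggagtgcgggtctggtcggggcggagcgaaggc

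Counted from the start of the gene, the letters began at base 16 in *Cenpa*, at base 2 in *Kif23* and at base 40 in *Bub1b*, and upstream at bases -71 and -15 in *Cdk1* and -116 and -98 in *Mki67*. The letters TTTGAA occurred in 17.9% of all 32851 promoters of the table, in 11.7% of the 8913 promoters of tested genes, in 4 of 5 promoters of the proliferation genes that were higher at unadjusted p under 0.05 and in 11 of 28 of the others, 33 of the 41 genes having a promoter in the table. *Rrm2*, a ribonucleotide reductase subunit, was the higher gene without a match. *Top2a*, whose difference was also near 0, had 2 matches. A match of these letters is a description and no measurement of binding.

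*Cenpa* had normalized counts of 154, 40.8, 137, 63.1 and 37.0 at 12 months and 209, 152, 214, 152 and 234 at 18 months. Only 12-month replicate 1 reached the 18-month range, and the log2 difference was 1.37 with a standard error of 0.34 (limma adjusted p = 0.567). *Foxm1*, the transcription factor of the mitotic program, had 51.5, 112, 109, 133 and 45.9 against 222, 143, 140, 117 and 136, a difference of 0.83. *Cdk1* had 414, 250, 406, 252 and 184 against 637, 307, 521, 410 and 396, a difference of 0.62 with overlap. *Kif23*, *Bub1b* and *Rrm2* differed by 0.47, 0.70 and 0.65. In contrast, *Mki67*, the standard marker of cycling cells, had 905, 942, 1128, 766 and 1318 against 1511, 1213, 879, 732 and 945, and its 95% interval ran from -0.36 to 0.44 around 0.04. *Top2a*, the topoisomerase of dividing cells, differed by -0.02 (-0.19 to 0.12 when any 1 library was left out). By role, the 18 proliferation markers had a median of 0.13, the 7 cyclins, kinases and *Foxm1* of 0.27 and the 16 replication genes of -0.02. The mean over the list was highest in 18-month replicate 1, and without that library the median was 0.00 and 2 members were higher at unadjusted p under 0.05.

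Targets of hypoxia-inducible factor 1 had the largest share of members in 1 direction among the lists with at least 14 genes tested. Of 25 tested, 22 had a positive difference, the median was 0.22, and *Slc2a1*, *Higd1a*, *Egln1* and *Car12* were higher at unadjusted p under 0.05. *Slc2a1*, the glucose transporter GLUT1, had normalized counts of 167, 88.1, 111, 128 and 99.4 at 12 months and 210, 179, 189, 157 and 208 at 18 months, a log2 difference of 0.69 with a standard error of 0.22 (limma adjusted p = 0.567). *Higd1a*, a mitochondrial protein induced by hypoxia, had 226, 183, 244, 200 and 213 against 284, 283, 356, 273 and 358, a difference of 0.54. *Egln1*, the prolyl hydroxylase that senses oxygen, had 621, 588, 529, 610 and 446 against 627, 703, 710, 718 and 783, a difference of 0.35. The ages did not overlap for *Higd1a* and *Egln1*, and for *Slc2a1* 12-month replicate 1 lay within the 18-month range. Averaged over the list as deviations from the mean of all 20 libraries, the 12-month libraries lay between -0.37 and -0.03, the 18-month libraries between -0.06 and 0.27 and the 24-month libraries between 0.19 and 0.42. The count of members at unadjusted p under 0.05 was 2 without 18-month replicate 5 and 5 without 12-month replicate 1, and the median was 0.14 without 18-month replicate 1. The letters ACGTG or GCGTG, of the hypoxia response element, were also searched in promoters on both strands. Among HIF-1 targets they occurred in 3 of 4 promoters of members higher at unadjusted p under 0.05. In the other members it was 13 of 16, and in tested genes 64.5% of 8913 promoters. Of 24 glycolytic genes, *Slc2a1* and *Ldha*, the lactate dehydrogenase (0.38), were higher, 0 were lower, and the median was -0.02.

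Lists of protein synthesis, protein degradation and respiration had members that were lower at unadjusted p under 0.05 and none that were higher, and the differences were small. Of 79 cytosolic ribosomal protein genes tested, 58 had a negative difference, 10 were lower and 0 higher at unadjusted p under 0.05, and the median was -0.08. *Rps14*, a protein of the small subunit, had normalized counts of 11519, 8735, 9032, 9832 and 12646 at 12 months and 8601, 8187, 7286, 8143 and 6906 at 18 months, without overlap, a log2 difference of -0.39. *Rpl35* and *Rps25* differed by -0.38 and -0.39. The number of ribosomal protein genes at unadjusted p under 0.05 moved from 3 without 18-month replicate 5 to 17 without 18-month replicate 2. Against 2 months, the median difference of the list was 0.17 at 12 months and 0.09 at 18 months. Ribosomal protein genes have many near-identical pseudogene copies, and how reads shared with them were counted was not given. Ribosome biogenesis had 3 of 28 genes lower, with *Dkc1*, the pseudouridine synthase dyskerin, at -0.52, and 1 lower without 12-month replicate 5.

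The proteasome had 5 of 42 genes lower and 0 higher at unadjusted p under 0.05 (*Psmc1*, *Psmc3*, *Psmc4*, *Psmd13* and *Pomp*), with a median of -0.02. *Psmc1*, an ATPase of the regulatory particle, had normalized counts of 1747, 2291, 1926, 2467 and 4193 at 12 months and 1843, 1811, 1736, 1502 and 1451 at 18 months. 12-month replicate 5 held the highest value, and without it the log2 difference went from -0.53 to -0.33 and 0 proteasome genes were lower. Of 75 nuclear genes of the respiratory chain, 6 were lower and 0 higher, the median was -0.02, and 1 was lower without 12-month replicate 5. *Sdhb*, the iron-sulfur subunit of complex II, had 829, 999.7, 981, 1026 and 1310 against 861, 727, 790, 838 and 654, a difference of -0.40 (-0.31 without 12-month replicate 5). *Ndufa12*, a subunit of complex I, differed by -0.50 (-0.35 without 12-month replicate 5). Genes encoded by the mitochondrial genome were not analysed here.

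**Figure D4:**
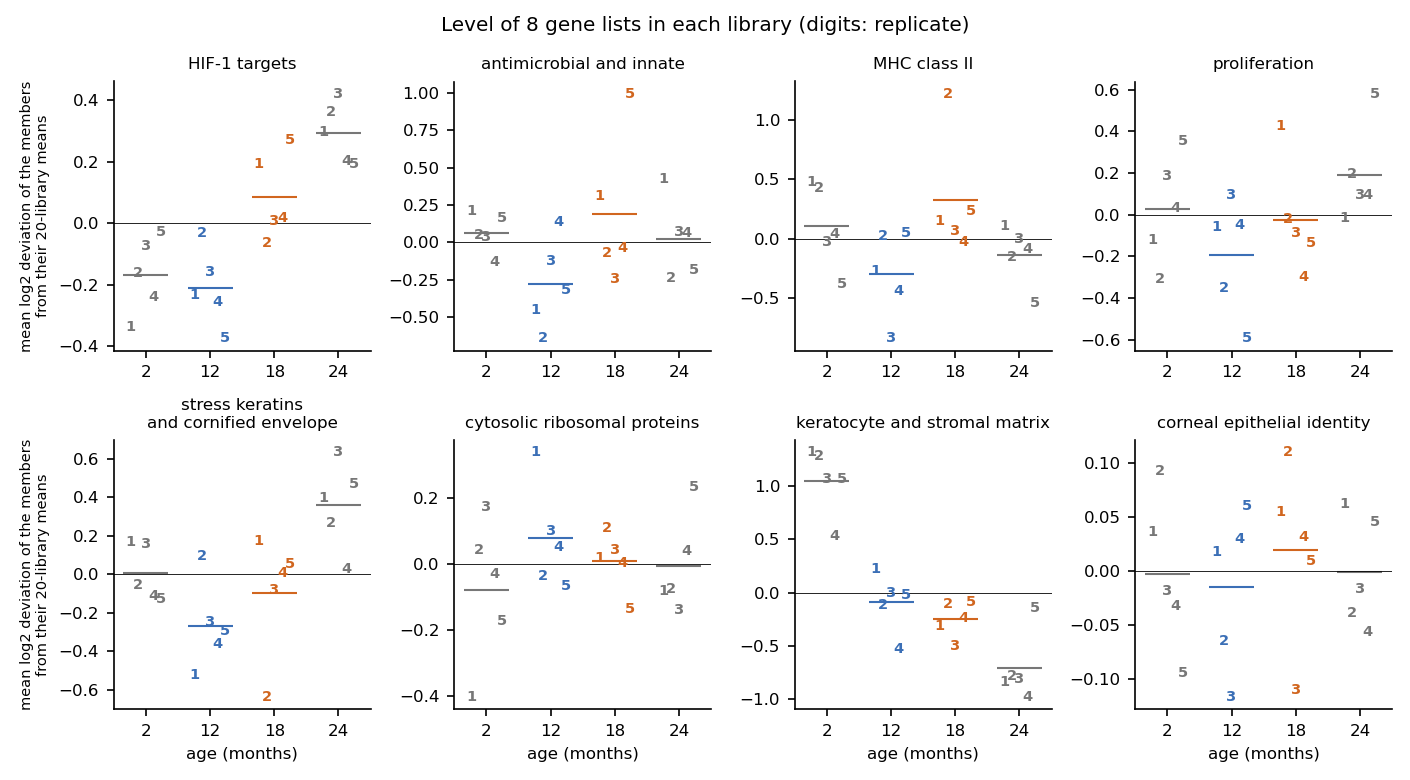
Mean deviation (log2) of the tested members of 8 gene lists from the mean of all 20 libraries, for each library (digits are replicate numbers) at the 4 ages. For the HIF-1 targets 4 of 5 libraries at 18 months lie above every 12-month library, while in the proliferation, antimicrobial and class II lists single 18-month libraries (replicates 1, 5 and 2) stand above the others of both ages.

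The circadian clock list of 19 genes had a median of -0.07 and 1 member at unadjusted p under 0.05. *Tef*, a clock-controlled transcription factor of the PAR bZIP family, had normalized counts of 907, 852, 1001, 866 and 1137 at 12 months and 667, 789, 538, 786 and 555 at 18 months, without overlap, a log2 difference of -0.52 with a standard error of 0.19 (limma adjusted p = 0.618). *Dbp*, the closest relative of *Tef* in the clock, overlapped between the ages and differed by -0.15. The hour at which each animal was killed was not given, so clock time and age cannot be told apart.

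Of the enzymes that make and break down lipid mediators, 3 were lower at 18 months, by small amounts with little spread. *Hpgds*, the hematopoietic prostaglandin D synthase, had normalized counts of 1651, 1585, 1391, 1565 and 1376 at 12 months and 1090, 1166, 1286, 1244 and 1071 at 18 months. *Alox12*, the 12-lipoxygenase, had 367, 488, 374, 418 and 553 against 307, 314, 266, 340 and 320, and *Ptgr1*, a reductase that inactivates prostaglandins and leukotriene B4, 3135, 3236, 3206, 3519 and 2872 against 2497, 2745, 2843, 2642 and 2790. The ages did not overlap for any of these 3 genes, with log2 differences of -0.37, -0.49 and -0.24 (limma adjusted p = 0.567, 0.567 and 0.637). Of the 14 genes of this list, 3 were lower and 1, *Ptges3*, was higher at unadjusted p under 0.05 and the median was -0.04. The 12-month means of *Hpgds* and *Alox12* were 1514 ± 123 and 440 ± 79.5, above the 2-month means of 1211 ± 112 and 329 ± 41.9 and the 24-month means of 1310 ± 41.0 and 306 ± 29.8 (SD, n = 5).

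Other genes of lipid use and of lysosomes differed singly and not as lists. *Hadhb* and *Hadha*, the partner subunits of the mitochondrial trifunctional protein of fatty acid oxidation, differed in opposite directions, by 0.88 and -0.34. *Fabp5*, the epidermal fatty acid-binding protein, differed by 0.48. Of 36 autophagy and lysosome genes 3 were higher, the protease *Ctsb* (0.34), the proton pump subunit *Atp6v1a* (0.51) and the autophagy receptor *Nbr1* (0.40), and 0 lower, with a median of 0.05.

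The identity of the epithelium and its junctions showed little difference. Of 27 corneal identity genes 1 was higher and 2 lower at unadjusted p under 0.05, and the median was 0.04. The number lower was 0 without 12-month replicate 4 or 5, 3 without 12-month replicate 1 or 18-month replicate 2, and 1 without 12-month replicate 2 or 18-month replicate 3, 4 or 5. *Krt14*, the basal keratin, was the higher one, with normalized counts of 4123, 4026, 3657, 3707 and 4867 at 12 months and 5811, 6314, 5499, 4315 and 5790 at 18 months, a log2 difference of 0.44, between 0.39 and 0.53 when any 1 library was left out. *Abcg2*, a transporter used as a limbal stem cell marker, and *Lypd2*, a surface protein, differed by -0.41 and -0.27. The 21 desmosome and adherens junction genes had a median of 0.05 with 0 members at unadjusted p under 0.05 in either direction. Of 21 tight junction genes *Cldn1* was higher (0.74, and 0.57 without 18-month replicate 2). Of 25 hemidesmosome and basement membrane genes 2 were lower, *Lamb1*, the laminin beta 1 chain (-0.45), and *Dst*, which encodes the hemidesmosome plaque protein BPAG1 (-0.26), with a median of -0.04.

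Genes of the tissue under and around the epithelium differed little between these ages. The 31 keratocyte and stromal matrix genes tested had a median of -0.13 (0.015 without 12-month replicate 1, 0.011 without 18-month replicate 3 and -0.26 without 12-month replicate 4). The summed normalized counts of all 38 genes of this list were 8142 to 10242 at 12 months and 7633 to 9460 at 18 months. *Cd34*, a keratocyte surface marker, was lower (-1.83, and -1.19 without 18-month replicate 2). *Kera*, the keratocyte proteoglycan keratocan, ranged from 0 to 5.36 and from 0 to 91.5. The 19 collagen genes had a median of -0.10 with 0 members at unadjusted p under 0.05. Among melanocyte genes *Dct* was lower at -1.09, which rested on the 904 normalized counts of 12-month replicate 3 against 56.1 to 110 in the other 12-month libraries. Without that library the difference was -0.37. Of the conjunctival markers, *Krt4*, *Krt13* and *Krt19* differed by -0.02, 0.01 and 0.01, the weakly expressed *Krt8* and *Krt18* by 0.82 and 1.19, *Krt7* by -0.35, and the goblet cell mucin *Muc5ac* was at 0 in every 12-month library and in 2 of 5 at 18 months.

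Growth factor and guidance pathways had few members that differed. Among 18 genes of the epidermal growth factor receptor family, *Nrg1*, the ligand neuregulin 1, was higher (1.76), with normalized counts of 72.6, 11.8, 23.6, 31.1 and 11.5 at 12 months and 59.8, 82.1, 62.7, 121 and 105 at 18 months, and *Ereg*, the ligand epiregulin, was lower (-0.51). Among 20 insulin and insulin-like growth factor genes, *Ide* and *Igfbp5*, a binding protein (0.41), were higher, and *Igf2*, a ligand (-0.81), and *Irs2*, a receptor substrate (-0.57), were lower. Among 35 neurotrophic and axon guidance genes, *Nrp1*, a receptor of semaphorins and of vascular endothelial growth factor, had 67.1, 34.2, 88.9, 91.2 and 75.2 against 100, 189, 91.3, 116 and 132, and *Ntn1*, the guidance cue netrin 1, had 8.27, 19.7, 13.9, 21.0 and 17.8 against 3.66, 5.86, 0, 5.38 and 1.93. Neither overlapped between the ages, with log2 differences of 0.84 and -2.19, and *Efnb2*, a membrane-bound ephrin, was also higher (0.29). The 15 Notch and 22 Wnt pathway genes had medians of 0.14 and 0.12 and 0 members at unadjusted p under 0.05 in either direction. Of 25 genes of transforming growth factor beta signalling, *Smad1* was higher (0.43), and the median was 0.08.

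Of 25 tested genes that the study names in its text, 5 were higher at unadjusted p under 0.05, *Il33*, *Wfdc18*, *Sprr1a*, *Cdkn2a* and *Hprt*, and 1 was lower, *Il6ra*. The study chose many of these from these libraries, so the count is no independent evidence of a direction. *Il6ra*, the interleukin 6 receptor, had normalized counts of 49.6, 47.4, 58.9, 51.1 and 42.1 at 12 months and 22, 16.4, 50.8, 16.1 and 25.1 at 18 months, with 18-month replicate 3 inside the 12-month range, a log2 difference of -1.03. *Hprt*, a purine salvage enzyme, was the reference gene of the study's qPCR, which was run on other animals. Its log2 difference here was 0.52 (0.33 without 12-month replicate 5).

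The comparison of 24-month with 2-month mice shares no library with that of 18-month with 12-month mice, and it was read for the same genes. Both tests took the spread of a gene from the same fit of all 20 libraries. A gene with a small spread passes both more readily, so their counts at unadjusted p under 0.05 are not independent. Of all 11288 genes, 50.7% were higher at 24 months, with 556 (4.93%) higher and 569 (5.04%) lower at unadjusted p under 0.05. Of the 450 genes higher at 18 than at 12 months, 302 (67.1%) were higher at 24 than at 2 months, 46 (10.2%) at unadjusted p under 0.05, and 13 (2.89%) were lower by that measure. Of the 389 lower genes, 131 (33.7%) were higher, 6 (1.54%) were higher at unadjusted p under 0.05 and 51 (13.1%) lower. The median difference between 24 and 2 months was 0.16 for the higher genes and -0.12 for the lower genes, small against their medians of 0.67 and -0.55 between 18 and 12 months, and it was 0.01 for all genes.

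**Figure D5:**
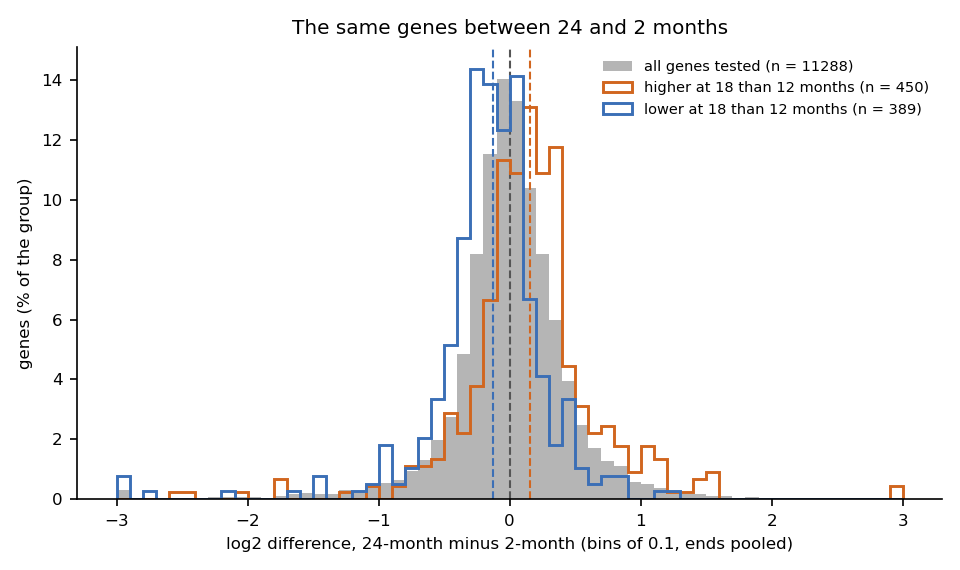
Distribution of the log2 difference between 24 and 2 months for all 11288 genes, for the 450 genes higher and for the 389 genes lower at 18 than at 12 months at unadjusted p under 0.05, with dashed lines at the medians (0.01, 0.16 and -0.12). The distribution of the higher genes lies to the right of that of all genes and that of the lower genes to its left, with wide overlap.

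Of the 97 genes in the same direction at unadjusted p under 0.05 in both comparisons, those with adjusted p of at most 0.05 between 24 and 2 months included, chosen after their values were seen, *Il33*, *Cdkn2a*, *Ide*, *Adam28* and *Ptpn22* on the higher side. *Adam28*, a membrane metalloprotease, had normalized counts of 697, 410, 500, 456 and 417 at 12 months and 795, 562, 672, 706 and 891 at 18 months, with means of 392 ± 30.4 at 2 months and 684 ± 65.7 at 24 months (SD, n = 5). *Ptpn22*, a phosphatase of immune receptor signalling, had 80.9, 105, 165, 147 and 130 against 215, 144, 184, 227 and 306, with 77.4 ± 15.0 at 2 months and 225 ± 58.6 at 24 months (SD, n = 5). Their log2 differences between 24 and 2 months were 0.80 and 1.51 (limma adjusted p = 0.00273 and 0.000503). On the lower side, *Apela*, which encodes a peptide ligand of the apelin receptor, had 38.6, 19.7, 21.4, 9.02 and 30.6 against 3.66, 0, 3.18, 7.17 and 8.70, without overlap, with 83.8 ± 46.4 at 2 months and 2.40 ± 2.45 at 24 months (SD, n = 5). *St3gal5*, the synthase of ganglioside GM3, differed by -0.83 between 18 and 12 months and by -1.46 between 24 and 2 months (limma adjusted p = 0.00214).

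The levels of these genes were also read at the other ages. The medians of the 450 higher genes were -0.42 for 12 against 2 months, 0.21 for 18 against 2 months and -0.08 for 24 against 18 months. Those of the 389 lower genes were 0.26, -0.28 and 0.15. These differences share the 12-month or 18-month libraries with the comparison that chose the genes and are given as levels only. All 8 of the largest non-overlapping higher genes had a 12-month mean below the 2-month mean, and 8 of the 9 lower genes, *Etohd2* included, had a 12-month mean above it. Between 24 and 2 months, 6 of those 8 had a positive difference and 7 of those 9 a negative one.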

How the data were processed

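Per the authors' methods, RNA was isolated from scraped epithelium, 3′ end libraries were primed with oligo-dT, and reads were trimmed with cutadapt, checked with FastQC, aligned to GRCm38 with STAR and counted per gene with HTSeq; versions are not given in the sources used here. The deposited values are log2 of a normalized count plus 1, the authors having divided each count by a size factor (relative log expression, DESeq2). The table also holds the authors' own fold changes and p-values, which were not used. Undoing the logarithm and the size factor recovered whole reads for 100% of values. Of 24552 genes, 7624 were at 0 in every library, and the minimum mean of 10 normalized counts corresponds to 7.6 to 13.3 reads.

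The deposited log2 values of all 20 libraries were fitted with limma 3.58.1 (R 4.3.3) with 4 age groups and an intensity trend, so that the ages share 1 estimate of the spread, and the 18-month minus 12-month contrast was adjusted by Benjamini-Hochberg over all 11288 genes. Confidence intervals are 95%. The fit was tested on simulated data. Tables and figures were made with Python 3.11.15, numpy 2.4.6, pandas 2.3.3, scipy 1.17.1 and matplotlib 3.10.9. Differences are on the log2(value + 1) scale, which understates those of low genes.

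Named genes were those passing adjusted p 0.05 and 1.2-fold, the 8 largest non-overlapping differences in each direction at a mean of at least 50, up to 4 members of each list by unadjusted p with its defining members, and genes the study names; some others were picked on seeing their values, and some are not reported here. Members, lists and tests were chosen with earlier results of these data known. Gene positions and promoters come from RefSeq on GRCm38.p6, with 8913 tested genes matched to a promoter by symbol. Alternatives changed the libraries fitted, filter, pseudocount, normalization, tool (voom on the recovered reads), replicate block and fold threshold, removed GC and length trends (added after seeing the data; 98.9% of genes had both values), and left out each library in turn.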

Additional observations from a re-analysis of the deposited data

Results flagged for a closer look

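Of 212 groups of 5 libraries checked for the genes named, 21 had a library whose gap to the nearest other exceeded 0.71 of the group's range (Dixon's 95% limit for 5 values). That limit marks about 1 group in 20 by chance where values are normally distributed. Normalized counts need not be, and many of these genes were named for large differences. The 21 groups can therefore not be set against that rate. All values are normalized counts.

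Among the genes with the largest non-overlapping differences, *Jrk* was low in 12-month replicate 4 (5.01 against 35.4 to 53.9) and high in 18-month replicate 5 (127 against 71.5 to 83.3). *Nme7* and *Tinf2* were low in 12-month replicate 5 (5.10 against 30.3 to 49.6, and 17.8 against 43.2 to 60.1), as was *Fgfbp3* (38.2 against 85.5 to 113). *Zbtb8b* was low in 12-month replicate 4 (25.1), *Ammecr1* in 12-month replicate 2 (21.0), *Pstk* in 12-month replicate 3 (17.1) and *Ccdc141* in 18-month replicate 2 (24.6).

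In 18-month replicate 2, *B2m* (2485 against 644 to 915) and *H2-Aa* (245 against 133 to 156) were high, *Lypd2* was high (26099) and *Hsd17b2*, an enzyme that inactivates sex steroids, was low (494), while *Cd34* was at 0. In 12-month replicate 4, *Nfkbiz* was high (1233) and *Rpl35* low (5297), and in 12-month replicate 1 *Abcg2* was low (342 against 443 to 492). *Zfp36* was high in 12-month replicate 1 (92.8 against 40.8 to 51.4) and in 18-month replicate 4 (175 against 62.7 to 80.3). *Hectd2*, a ubiquitin ligase gene near *Ide*, was low in 18-month replicate 4 (7.17), and *Dct* was high in 12-month replicate 3 (904 against 56.1 to 110).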

How the results depend on the processing

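The single call, *Etohd2*, was kept with a pseudocount of 0.1, with GC and length trends removed, and with no fold or a 1.5-fold threshold (1 gene each). 0 genes were called by limma with only the 10 libraries compared, no filter on low values, a minimum mean of 50 (which leaves *Etohd2* out), a pseudocount of 10, quantile normalization or voom, at 683 to 1078 genes with unadjusted p under 0.05 except 646 with the minimum of 50. Leaving out each library in turn gave 0 to 3 calls and 585 to 1330 genes with unadjusted p under 0.05; the 3 calls, without 12-month replicate 1, were *Ang*, *Etohd2* and *Ide* (adjusted p = 0.0124 for each). Removing GC and length trends, added after seeing the data, gave 809 genes, 352 higher and 457 lower. The count of genes without overlap was 106 to 138.

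Replicate numbers were shared between the ages, but same-numbered libraries deviated together by correlations of only -0.007 to 0.025. No pairing by number was seen, and what the numbers stand for was not given. With a replicate block 0 genes were called and 759 had unadjusted p under 0.05.

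Of 106 genes, 4 turned in sign, all with a difference near 0. Leaving out each library in turn gave -0.10 to 0.16 for *Mki67*, -0.19 to 0.12 for *Top2a*, -0.28 to 0.022 for *Dbp* and -0.0021 to 0.090 for *Krt12*, and *Mki67* was -0.05, -0.10 and -0.022 without 12-month replicate 4, 18-month replicate 1 and 18-month replicate 2. *Top2a* was 0.0016 with quantile normalization and *Krt12* -0.0019 with GC and length trends removed. The cause was not tested. Depth and replicate number limit what can be said of genes under a mean of 50.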

Other observations

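*Ang*, which encodes the secreted ribonuclease angiogenin, had normalized counts of 23, 5.26, 0, 0 and 0 at 12 months and 25.6, 11.7, 17.5, 34.0 and 35.8 at 18 months, a log2 difference of 3.14 (limma adjusted p = 0.518). *Cp*, the copper oxidase ceruloplasmin, had 91.0, 76.3, 88.9, 80.2 and 86.7 against 134, 198, 101, 89.6 and 361, a difference of 0.86 (0.56 without 18-month replicate 5). It was the only one of 13 iron-handling genes at unadjusted p under 0.05.

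Among 33 genes of the NRF2 and glutathione response, 0 were higher and 2 lower at unadjusted p under 0.05, the glutathione transferases *Gstm2* (-0.55) and *Gstt1* (-2.61), with a median of -0.03. Of 27 genes of the unfolded protein response, *Pdia6*, a disulfide isomerase (0.31), and *Asns*, the asparagine synthetase (1.65), were higher and 0 lower, with a median of 0.02. The 23 heat shock chaperones had 0 members at unadjusted p under 0.05 in either direction and a median of -0.04.

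*Kit*, the stem cell factor receptor, had 901, 1240, 1054, 1439 and 1574 at 12 months and 872, 1034, 954, 944 and 769 at 18 months, a difference of -0.42. *Plekhh1* had 404, 530, 498, 544 and 408 against 360, 325, 306, 384 and 260, without overlap, a difference of -0.54. *Rnf149*, a ubiquitin ligase, had 1307, 1238, 1320, 971 and 1014 against 1388, 1379, 1545, 1591 and 1447, without overlap, a difference of 0.34.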
